A study of Mus musculus with 20 samples.

Results

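The IGF binding protein system of cultured mouse tendon cells was followed through 9 genes: the binding proteins Igfbp2, Igfbp3, Igfbp4, Igfbp5, Igfbp6 and Igfbp7, the protease Pappa, and the stanniocalcins Stc1 and Stc2. They were picked by gene symbol for what their proteins do, out of 29986 genes in the count table, with earlier results of these data known. All 9 of 9 passed the filter on low counts and are among the 14420 genes tested. Tenocytes, the fibroblast-like cells of tendon, came from tail tendons of adult C57Bl/6 mice with no genetic change named in the labels. Cultures received IGF1 (insulin-like growth factor 1) at 100 ng/mL for 1, 2, 6 or 24 h, and the 0 h cultures received none. RNA sequencing gave 4 libraries per time, 20 in all. Untreated cultures kept for the same times were not analysed here, so the length of IGF1 treatment and the time in culture cannot be told apart. The labels do not say whether the 4 libraries of a time are separate mice or cultures, so the p-values measure the spread between these libraries, which may be technical.

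IGF binding proteins are secreted proteins that hold IGF1 and IGF2 outside the cell and so control how much of the hormone reaches its receptor. Pregnancy-associated plasma protein A, encoded by Pappa, is a metalloprotease that cuts some of these binding proteins, Igfbp4 and Igfbp5 among them, and frees the bound IGF. The stanniocalcins are secreted glycoproteins that bind and block this protease. IGF1 is a growth factor for tendon, where it promotes cell division and matrix synthesis. The libraries hold messenger RNA, and neither the proteins nor their cleavage were measured.

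Library totals ranged from 13734425 to 22687173 counts. All 10 tenocyte markers listed (Scx, Mkx, Tnmd, Col1a1, Col1a2, Col3a1, Fmod, Dcn, Thbs4, Thbs2) were tested, with a summed level of 53771 to 84248 CPM (counts scaled to library size) over the 20 libraries. The libraries at 2 h stood apart. The summed level of 13 macrophage markers was 601, 1099, 416 and 505 CPM in 2 h replicates 1 to 4 and 276 to 348 CPM at 0 h, and 12 of the 13 rose at 2 h. In 2 h replicate 2 the 8 Schwann cell markers summed to 96.6 CPM, against 6.49 to 8.10 CPM at 0 h. The 8 pericyte and smooth muscle markers summed to 98.5 CPM and the 8 endothelial markers to 56.5 CPM in that library, against 43.7 to 52.5 CPM and 41.2 to 43.8 CPM at 0 h. At 1, 6 and 24 h the macrophage sum ranged over 252 to 550.3, 292 to 466 and 203 to 366 CPM, and the Schwann cell sum over 6.89 to 12.5, 5.92 to 21.7 and 10.2 to 16.3 CPM. The Schwann cell sum at 24 h thus lay above 0 h without overlap. The pericyte sum was 43.6 to 50.6 CPM at 1 h, 38.6 to 42.0 CPM at 6 h and 43.0 to 51.8 CPM at 24 h. At 6 h it lay below 0 h without overlap. The endothelial sum, most of which is Tek (38.5 CPM at 0 h), was 38.6 to 45.2 CPM at 1 h, 24.6 to 29.9 CPM in the other 3 libraries at 2 h, 10.6 to 14.5 CPM at 6 h and 26.5 to 31.1 CPM at 24 h, so that at 6 h and 24 h it lay below 0 h without overlap. The part of these marker shifts in the later results was not tested. No macrophage, Schwann cell or pericyte marker was at 0 in a library at 2 h, and 1, 0, 3 and 1 of the 8 endothelial markers were at 0 in replicates 1 to 4. The part of these other cells in the results at 2 h was not tested, and in bulk RNA fewer cells of a type and less RNA per cell cannot be told apart. Values at 2 h of the other genes named below are given with all libraries only. For the 9 genes, calls at 2 h against 0 h and in the steps to and from 2 h are also given with 2 h replicates 1 and 2 left out. That setting keeps 2 h replicate 4, whose counts differed most from the other libraries at 2 h. A chi-square test gave 41.0, 55.4 and 43.5 per degree of freedom against replicates 1, 2 and 3. Pairs among replicates 1, 2 and 3 gave 9.10 to 31.8.

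Over the time course 3 binding proteins rose (Igfbp3, Igfbp4, Igfbp5), 2 fell (Igfbp6, Igfbp7), and Igfbp2 was lower at 24 h without being called. The protease Pappa fell, Stc1 rose up to 6 h and then fell, and Stc2 rose slightly before it fell. A gene was called at an adjusted p under 0.05, by edgeR's quasi-likelihood test with Benjamini-Hochberg adjustment over all 14420 genes. At 1 h 0 of the 9 genes were called, where 10.6% of all tested genes were (6.75% higher, 3.88% lower). The count at an unadjusted p under 0.05 was 1 (Stc2), and DESeq2 called 0. At 2 h 5 genes were called, all higher (Igfbp3, Igfbp4, Igfbp5, Stc1, Stc2), against 37.7% of all tested genes (20.2% higher, 17.5% lower). Without 0 h replicate 2 the count at 2 h was 3. With 2 h replicates 1 and 2 left out, 4 were called higher and 1 lower: Igfbp3 (0.19, adjusted p = 0.181) and Stc1 (0.66, 0.0940) were lost, and Igfbp2 (0.31, 0.0164) was called higher and Pappa (-0.85, 8.42e-05) lower. At 6 h 4 were higher (Igfbp3, Igfbp5, Stc1, Stc2) and 2 lower (Igfbp6, Pappa), against 40.2% (20.6% higher, 19.6% lower). At 24 h 3 were higher (Igfbp3, Igfbp4, Igfbp5) and 4 lower (Igfbp6, Igfbp7, Pappa, Stc2), against 26.0% (12.7% higher, 13.2% lower).

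In the test of any change over the 4 treated times, 9 of 9 genes were called, against 63.7% of all tested genes. The 4 treated and the 4 untreated libraries of a gene did not overlap in CPM for 0 of the 9 genes after 1 h, 3 after 2 h, 6 after 6 h and 8 after 24 h. Over all tested genes the libraries did not overlap for 17.9%, 29.6%, 43.3% and 31.4%. The 9 genes had a median log2 fold change of 0.02 after 1 h, 0.17 after 2 h, 0.12 after 6 h and -0.33 after 24 h, and that of all tested genes lay between -0.01 and 0.00. These 4 comparisons all use the same 4 libraries at 0 h.

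**Figure D1:**
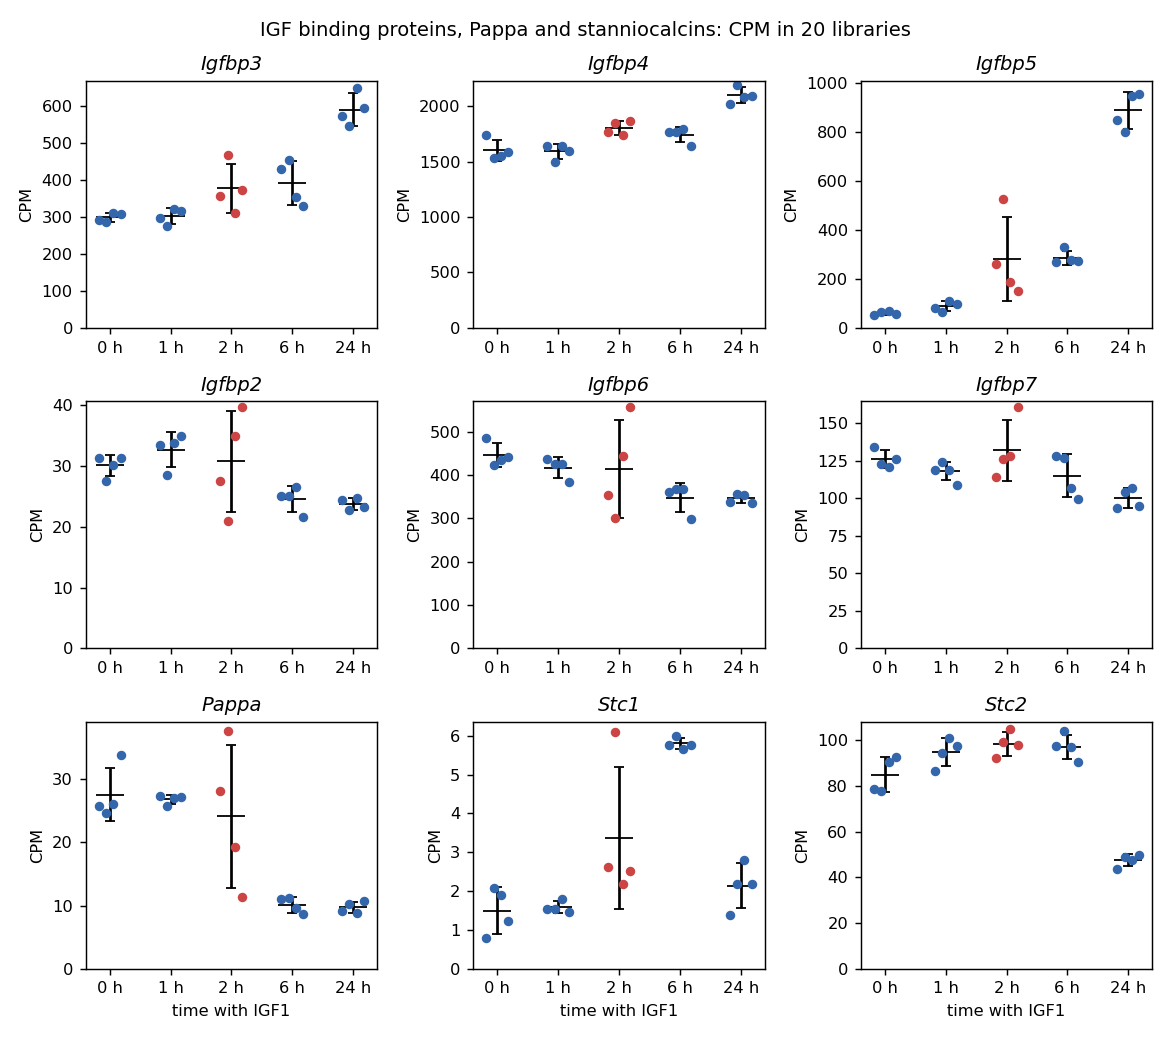
CPM (linear axes from 0, 1 panel per gene) in all 20 libraries by hours with IGF1, with 1 point per library (2 h in red) and bars for the mean ± SD of 4 libraries. Igfbp5 climbs from 53.6 to 70.6 CPM at 0 h to 801 to 954 CPM at 24 h, Pappa lies at 8.66 to 11.2 CPM at 6 and 24 h, and Stc1 is at 5.65 to 5.99 CPM at 6 h.

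Igfbp5 had the largest rise of the 9 genes. It encodes a binding protein that also attaches to extracellular matrix, and on build mm10 it lies at chr1:72857932-72874884 on the minus strand. Its level was 53.6, 64.3, 70.6 and 57.7 CPM in 0 h replicates 1 to 4. It was 80.7, 63.7, 112 and 98.9 CPM at 1 h and 262, 527, 186 and 149.6 CPM at 2 h. The libraries at 1 h overlapped those at 0 h, and each library at 2 h exceeded each at 0 h and 1 h, with replicate 2 the highest.

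At 6 h Igfbp5 measured 268, 329, 276 and 275 CPM, and at 24 h 850.2, 801, 946 and 954 CPM. Against 0 h the log2 fold change of Igfbp5 was 0.53 ± 0.30 (SE) at 1 h (adjusted p = 0.331), 2.19 ± 0.31 at 2 h (3.61e-05), 2.22 ± 0.31 at 6 h (2.44e-05) and 3.85 ± 0.33 at 24 h (1.76e-07). The last value is a 14.4-fold rise, and it ranked 4 of 14420 genes from the highest log2 fold change at 24 h. Between successive times it rose by 1.66 ± 0.30 from 1 h to 2 h (0.00131) and by 1.63 ± 0.30 from 6 h to 24 h (4.14e-04). The change between 2 h and 6 h was 0.03 ± 0.29 (0.961), with a 95% interval of -0.59 to 0.64. With 1 library left out that change ran from -0.18 to 0.53 and was not called (0.0539 to 0.992). Whether the rise paused between 2 h and 6 h is thus not settled. Without 2 h replicates 1 and 2, the value at 2 h was 1.45 (2.13e-05), the step from 1 h to 2 h was 0.92 (0.00309), the step from 2 h to 6 h was 0.78 (adjusted p = 0.00673), and the value at 1 h, 0.52, was called (0.0393).

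**Figure D2:**
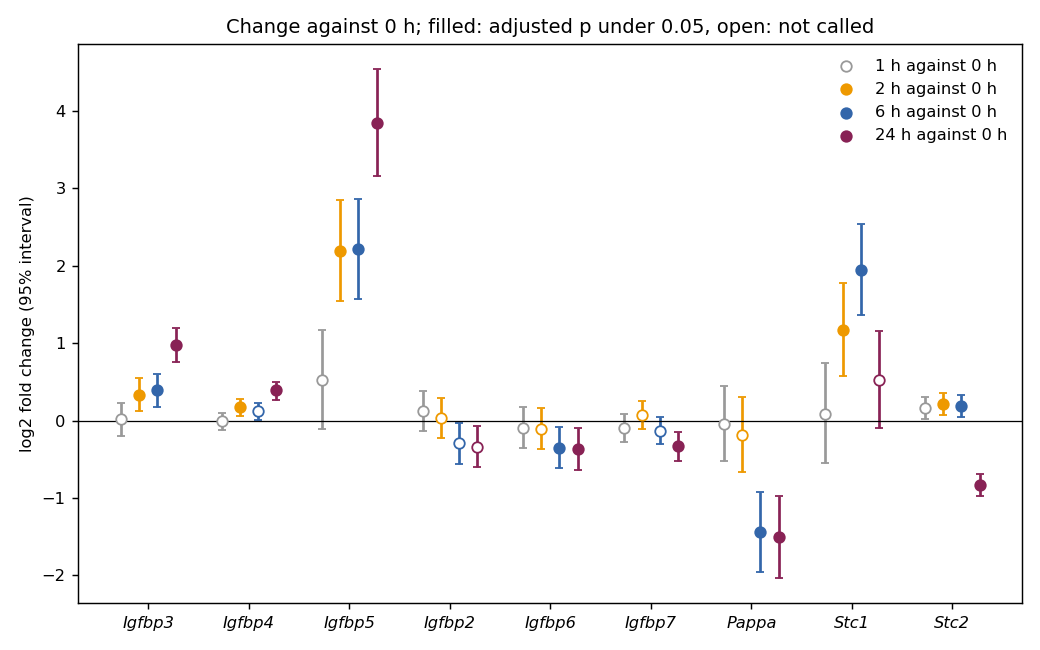
Log2 fold change of the 9 genes at 1, 2, 6 and 24 h of IGF1 against 0 h (4 libraries a group) from the edgeR fit, with bars for the 95% interval, filled points at an adjusted p under 0.05 and open points otherwise. Igfbp5 reaches 3.85 at 24 h, Pappa lies at -1.44 and -1.50 at 6 and 24 h, and no point at 1 h is filled.

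The sequences just upstream of Igfbp5, Igfbp3 and Igfbp4, which rose, and of Igfbp2, the neighbour of Igfbp5, are shown to set the promoters side by side. In the main fit of all libraries Igfbp2 was not called at any single time against 0 h, though it passed the test of any change. They come from RefSeq (build GRCm38.p6), end at or before the annotated start (the Igfbp5 run is 231 bases for that reason), run 5′ to 3′ on the gene's strand, and mark the motif matches described next in capitals.
Igfbp5, chr1:72874885-72875115, minus strand: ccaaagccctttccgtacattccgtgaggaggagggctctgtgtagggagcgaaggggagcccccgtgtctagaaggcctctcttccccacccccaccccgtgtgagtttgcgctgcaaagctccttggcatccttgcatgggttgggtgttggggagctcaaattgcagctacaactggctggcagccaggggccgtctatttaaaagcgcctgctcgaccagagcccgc
Igfbp3, chr11:7213924-7214173, minus strand: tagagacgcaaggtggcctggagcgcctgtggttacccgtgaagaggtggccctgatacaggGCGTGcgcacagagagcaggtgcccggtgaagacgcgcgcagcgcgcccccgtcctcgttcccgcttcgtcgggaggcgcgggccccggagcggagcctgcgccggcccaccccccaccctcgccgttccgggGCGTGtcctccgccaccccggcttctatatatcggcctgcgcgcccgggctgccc
Igfbp4, chr11:99040994-99041243, plus strand: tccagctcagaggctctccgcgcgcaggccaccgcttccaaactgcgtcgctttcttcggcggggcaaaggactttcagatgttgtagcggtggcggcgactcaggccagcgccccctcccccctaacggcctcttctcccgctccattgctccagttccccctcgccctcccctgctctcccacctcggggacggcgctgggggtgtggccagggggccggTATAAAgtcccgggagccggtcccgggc
Igfbp2, chr1:72824230-72824479, plus strand: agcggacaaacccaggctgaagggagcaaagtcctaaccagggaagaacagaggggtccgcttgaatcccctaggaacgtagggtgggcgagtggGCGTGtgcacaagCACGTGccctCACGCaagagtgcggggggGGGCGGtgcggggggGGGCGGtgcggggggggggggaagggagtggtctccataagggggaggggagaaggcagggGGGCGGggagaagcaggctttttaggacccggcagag

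Of the 9 genes, 7 had an entry in the promoter table (8 entries, since Igfbp2 has 2), while Pappa and Stc1 had none. The 250 bases before each start were searched on both strands for the forkhead sequence TGTTTAC and its variant TGTTTTG, and for the E-box, written CACGTG. The core of the hypoxia response element was searched as ACGTG and, in its other form, as GCGTG. The AP-1 element was searched as TGANTCA, the TATA box as TATAAA and the GC box as GGGCGG. The core ACGTG lies within CACGTG, so an E-box match is also counted there. Neither forkhead sequence occurs in any of the 8 entries, and they occur in 3.17% and 5.56% of 32851 mouse promoters of the same length. Igfbp5 holds none of the 8 sequences.

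In the Igfbp3 window GCGTG occurs 188 and 55 bases upstream, and it is found in 28.2% of promoters. Igfbp4 holds TATAAA 28 bases upstream (12.4% of promoters), and Igfbp6 holds it 148 bases upstream. The Igfbp2 entry shown has CACGTG 142 bases upstream (6.02%), GCGTG at 155 and 132 bases, and GGGCGG at 113, 98 and 37 bases (32.7%). The other Igfbp2 entry, which lies within the annotated gene, holds TGANTCA 39 bases upstream (6.75%). Igfbp7 has GGGCGG in 4 places, with ACGTG at 175 bases (16.6%) and GCGTG at 187 bases, and Stc2 has GCGTG at 240 and 231 bases. A match describes the letters of a window and shows no binding.

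Igfbp3, which encodes the main IGF carrier of blood, rose at 2 h, 6 h and 24 h (chr11:7206086-7213923, minus strand). Its level was 293, 287, 312 and 308 CPM at 0 h, and 299, 275, 323 and 318 CPM at 1 h. It was 358, 469, 312 and 373 CPM at 2 h, 429.7, 454, 356 and 329 CPM at 6 h, and 573, 546, 650.0 and 595 CPM at 24 h. Each library at 24 h exceeded each library of the earlier times, and those at 2 h and 6 h overlapped each other.

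For Igfbp3 the log2 fold change was 0.02 ± 0.10 at 1 h (adjusted p = 0.950), 0.33 ± 0.10 at 2 h (0.0136), 0.39 ± 0.10 at 6 h (0.00436) and 0.98 ± 0.10 at 24 h (1.61e-07, a 1.97-fold rise). From 6 h to 24 h it rose by 0.59 ± 0.10 (9.10e-05). The call at 2 h rested on 1 library: it was 0.21 (0.0749) when 2 h replicate 2 was left out, and 0.19 (0.181) when 2 h replicate 1 was too. The step from 1 h to 2 h, 0.32 ± 0.10 (0.0398), was lost without 1 h replicate 1, 2 or 4 (0.0890, 0.117 and 0.0524) or 2 h replicate 2 or 4 (0.141 and 0.0881).

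Igfbp4 encodes a small binding protein that is a substrate of the Pappa protease (chr11:99041244-99054392, plus strand). It measured 1741, 1537, 1553 and 1583 CPM at 0 h and 2018, 2192, 2083 and 2092 CPM at 24 h, so the groups did not overlap. Between them the range was 1496 to 1644 CPM at 1 h, 1737 to 1862 CPM at 2 h and 1642 to 1792 CPM at 6 h. Its log2 fold change at 24 h was 0.39 ± 0.055 (adjusted p = 3.66e-06), a 1.31-fold rise. At 2 h it was 0.17 ± 0.055 (0.0159), a call lost without 0 h replicate 2 or 3 (0.0584 and 0.0517), and at 6 h 0.12 ± 0.055 (0.0841), called without 0 h replicate 1 (0.0248) or 2 h replicate 4 (0.0399). The step from 1 h to 2 h was 0.18 ± 0.055 (0.0254), a call lost when 1 h replicate 2 was left out (0.0994). From 6 h to 24 h Igfbp4 rose by 0.27 ± 0.055 (3.28e-04).

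By 24 h Igfbp6 fell 1.29-fold and Igfbp7 1.26-fold, and Igfbp2 was 1.26-fold lower without passing the test. Igfbp6, whose protein prefers IGF2 over IGF1 (chr15:102144362-102149511, plus strand), measured 486, 423, 434 and 441 CPM at 0 h and 337, 356, 353 and 336 CPM at 24 h. At 6 h it measured 359.8, 367, 368 and 299 CPM. Neither of these times overlapped 0 h, while at 2 h the range of 301 to 557 CPM spanned that of 0 h. Igfbp6 changed by -0.36 ± 0.13 (log2) at 6 h (adjusted p = 0.0312) and -0.37 ± 0.13 at 24 h (0.0391). Leaving out any 1 of the 8 libraries compared ended the call at 24 h (0.0501 to 0.0908), with values of -0.39 to -0.33. The call at 6 h ended without 0 h replicate 1 (0.0794), 0 h replicate 4 (0.0511) or 6 h replicate 4 (0.0978). At 2 h the value was -0.11 ± 0.13 (0.534), and without 2 h replicate 4 it was -0.29 (0.0232).

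Igfbp7 encodes a secreted protein with low affinity for IGFs that is found in vessel walls and matrix (chr5:77349240-77408041, minus strand). It measured 134, 123, 121 and 126 CPM at 0 h and 93.6, 104, 107 and 95.0 CPM at 24 h, without overlap. The log2 fold change at 24 h was -0.33 ± 0.088 (adjusted p = 0.00544), and it stayed called without any 1 library (2.52e-04 to 0.0244). At 1 h, 2 h and 6 h it was -0.10, 0.07 and -0.13, and none was called (0.570, 0.579 and 0.245). Igfbp7 shares 7.03% of its exonic bases with Polr2b on the opposite strand, and whether reads were counted by strand is not known.

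Igfbp2, another IGF binding protein (chr1:72824503-72852474, plus strand), missed the threshold at each time in the main fit of all libraries. It measured 31.3, 27.5, 30.2 and 31.3 CPM at 0 h, 25.1, 25.1, 26.5 and 21.6 CPM at 6 h, and 24.5, 22.7, 24.8 and 23.3 CPM at 24 h. The 0 h libraries lay above all libraries at 6 h and 24 h. The log2 fold change was -0.29 ± 0.13 at 6 h (adjusted p = 0.0695) and -0.34 ± 0.13 at 24 h (0.0561), but its test of any change was passed (0.00890). Both values were called without 2 h replicate 2 (0.0145 and 0.00979) or 2 h replicate 4 (0.0205 and 0.0139), whose levels of 20.9 and 39.7 CPM are the lowest and highest of the 20 libraries. DESeq2 called the change at 24 h (-0.34, adjusted p = 0.0374). In edgeR that change was also called with RLE scaling (0.0486), with no filter on low counts (0.00350) and with only the libraries compared (0.00110). A block for the replicate number gave 0.0327. With 1 library left out the adjusted p at 24 h ran from 0.00979 to 0.129. With 2 h replicates 1 and 2 left out, Igfbp2 was called higher at 2 h (0.31, 0.0164), the opposite direction, and lower at 6 h (-0.29, 0.00503) and 24 h (-0.33, 0.00296).

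Levels of different genes were compared per kilobase of exon (RPKM, CPM divided by exonic length). That length joins the exons of all annotated transcripts of a gene. Which transcripts the cells express was not examined, and the orders, shares and ratios in RPKM depend on it. At 0 h Igfbp6 (401 ± 25.0 RPKM, SD, n = 4) and Igfbp4 (363 ± 21.3 RPKM) stood highest and overlapped. Igfbp7 (104 ± 4.86 RPKM) and Igfbp3 (95.8 ± 3.79 RPKM) followed without overlap. Stc2 (16.4 ± 1.49 RPKM) and Igfbp2 (16.3 ± 0.970 RPKM) overlapped, and below them were Igfbp5 (10.2 ± 1.25 RPKM), Pappa (2.50 ± 0.381 RPKM) and Stc1 (0.358 ± 0.143 RPKM). By RPKM Igfbp5 was thus the least abundant of the 6 binding proteins in untreated cells. In mean CPM at 0 h, not divided by length, Igfbp2 (30.1) lay below Igfbp5 (61.6), and Igfbp4 (1603) above Igfbp6 (446).

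At 24 h the order was Igfbp4 (475 ± 16.2 RPKM), Igfbp6 (311 ± 9.13 RPKM), Igfbp3 (189 ± 14.1 RPKM), Igfbp5 (148 ± 12.4 RPKM) and Igfbp7 (82.7 ± 5.50 RPKM). Below them came Igfbp2 (12.9 ± 0.528 RPKM), Stc2 (9.18 ± 0.522 RPKM), Pappa (0.881 ± 0.0829 RPKM) and Stc1 (0.510 ± 0.137 RPKM). No neighbours in that order overlapped. Igfbp5 had passed Stc2 and Igfbp2 by 2 h and Igfbp7 by 24 h.

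Of the summed RPKM of the 6 binding proteins, Igfbp5 made up 1.04% ± 0.165 at 0 h and 4.47% ± 2.82 at 2 h (SD, n = 4). Its share was 4.84% ± 0.424 at 6 h and grew to 12.1% ± 0.919 by 24 h. The share of Igfbp6 was 40.5% ± 0.467 at 0 h and 25.5% ± 0.581 at 24 h, that of Igfbp3 9.69% ± 0.630 and 15.5% ± 0.927, and that of Igfbp4 36.6% ± 0.368 and 39.0% ± 1.24. The sum itself was 991 ± 49.9 RPKM at 0 h, 989 ± 72.1 RPKM at 6 h and 1218 ± 33.0 RPKM at 24 h. The mix had shifted at 6 h while the sum overlapped that of 0 h, and at 24 h all 4 sums (1176 to 1256 RPKM) exceeded those of 0 h (948 to 1062 RPKM). Shares of 1 sum are not independent, since a rise of one member lowers the shares of the others.

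**Figure D3:**
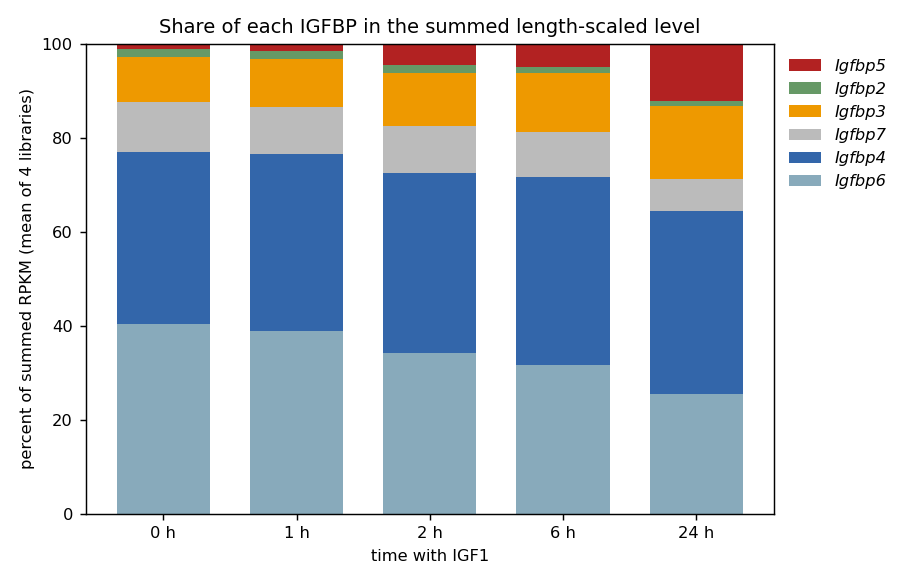
Share (%) of each of the 6 IGF binding proteins in their summed RPKM at each time, as means of 4 libraries that add up to the whole. Igfbp6 goes from 40.5% at 0 h to 25.5% at 24 h and Igfbp5 from 1.04% to 12.1%.

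Pappa (chr4:65124174-65357509, plus strand) fell between 2 h and 6 h, and its libraries at 6 h and 24 h overlapped. It measured 25.7, 24.6, 26.0 and 33.8 CPM at 0 h and 27.4, 25.7, 27.0 and 27.1 CPM at 1 h. At 2 h its libraries split into 28.1, 37.6, 19.2 and 11.4 CPM, at 6 h it measured 11.1, 11.2, 9.57 and 8.66 CPM, and at 24 h 9.14, 10.3, 8.75 and 10.7 CPM. Each library at 6 h and 24 h lay below each library at 0 h, 1 h and 2 h.

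The log2 fold change of Pappa was -0.04 ± 0.23 at 1 h (adjusted p = 0.953), -0.19 ± 0.23 at 2 h (0.566), -1.44 ± 0.25 at 6 h (1.47e-04) and -1.50 ± 0.25 at 24 h (2.08e-04, 2.83-fold lower). Between 2 h and 6 h it changed by -1.26 ± 0.25 (0.00105), and between 6 h and 24 h by -0.06 ± 0.26 (0.888). At 24 h it ranked 101 of 14420 from the lowest log2 fold change. Without 2 h replicates 1 and 2, Pappa was called lower at 2 h (-0.85, adjusted p = 8.42e-05), and the step from 2 h to 6 h was -0.59 (0.00602). That setting keeps the lowest library at 2 h, replicate 4 (11.4 CPM). With 1 library left out, the value of Pappa at 2 h ran from -0.49 to 0.04 and was not called (0.0531 to 0.854).

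Stc2 (chr11:31357307-31370074, minus strand) was the more abundant stanniocalcin and fell late. It measured 78.9, 77.9, 90.7 and 92.6 CPM at 0 h, 97.3, 104, 97.0 and 90.6 CPM at 6 h, and 43.7, 49.1, 47.5 and 49.8 CPM at 24 h. The ranges at 1 h and 2 h were 86.5 to 101 CPM and 92.1 to 105 CPM. All 4 libraries at 24 h lay below the 16 others, and the log2 fold change was -0.84 ± 0.071 against 0 h (adjusted p = 4.62e-10) and -1.03 ± 0.071 against 6 h (7.33e-12). Before that Stc2 was called 0.21 ± 0.069 higher at 2 h (0.0163) and 0.19 ± 0.069 higher at 6 h (0.0268). The call at 2 h was lost without 0 h replicate 1 or 2 or 2 h replicate 3 (0.0660, 0.0726 and 0.0531). The call at 6 h was lost without 0 h replicate 1 or 2 (0.101 and 0.108) or 6 h replicate 1, 2 or 3 (0.0523, 0.0992 and 0.0506).

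Stc1 (chr14:69029238-69041804, plus strand) was scarce, rose up to 6 h and was lower again at 24 h. It had 17 to 41 counts per library at 0 h, so its values there carry more counting error than those of the other genes. It shares 5.46% of its exonic bases with Gm41192 on the opposite strand, which was not analysed here. Its level was 0.788, 2.08, 1.91 and 1.23 CPM at 0 h, and 1.55, 1.55, 1.79 and 1.46 CPM at 1 h. It was 2.63, 6.09, 2.19 and 2.52 CPM at 2 h, 5.77, 5.99, 5.65 and 5.77 CPM at 6 h, and 1.39, 2.17, 2.80 and 2.19 CPM at 24 h. All libraries at 2 h and 6 h exceeded those at 0 h, and those at 24 h overlapped them.

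The log2 fold change of Stc1 was 0.09 ± 0.31 at 1 h (adjusted p = 0.907), 1.17 ± 0.29 at 2 h (0.00241), 1.95 ± 0.29 at 6 h (3.74e-06, 3.87-fold) and 0.53 ± 0.31 at 24 h (0.223). It fell by 1.42 ± 0.28 on the log2 scale from 6 h to 24 h (2.33e-04). The value at 2 h was 0.71 (0.0340) without 2 h replicate 2. It was 0.66 (0.0940) when 2 h replicate 1 was left out as well, and that at 6 h was 1.74 to 2.16 without any 1 library. The step from 1 h to 2 h, 1.08 ± 0.30 (0.0124), was 0.63 (0.111) without 2 h replicate 2. The step from 2 h to 6 h, 0.78 ± 0.27 (0.0305), was lost without 2 h replicate 1, 3 or 4 (0.0921, 0.102 and 0.0664) and without any 6 h library (0.0536 to 0.0617).

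The sum of Stc1 and Stc2 over Pappa, in RPKM, described how the messages of the inhibitors and the protease stood to each other. It was 6.61, 6.97, 7.63 and 5.94 at 0 h, and 6.87, 7.99, 8.18 and 7.81 at 1 h. It was 7.22, 6.04, 11.9 and 18.8 at 2 h, 20.1, 21.1, 23.1 and 24.1 at 6 h, and 10.6, 10.7, 12.4 and 10.5 at 24 h. All libraries at 6 h exceeded all of the other times, and all at 24 h exceeded those at 0 h and 1 h. Stc2 made up most of the sum, with Stc1 at 2.14% ± 0.891 of it at 0 h and 6.86% ± 0.289 at 6 h (SD, n = 4).

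**Figure D4:**
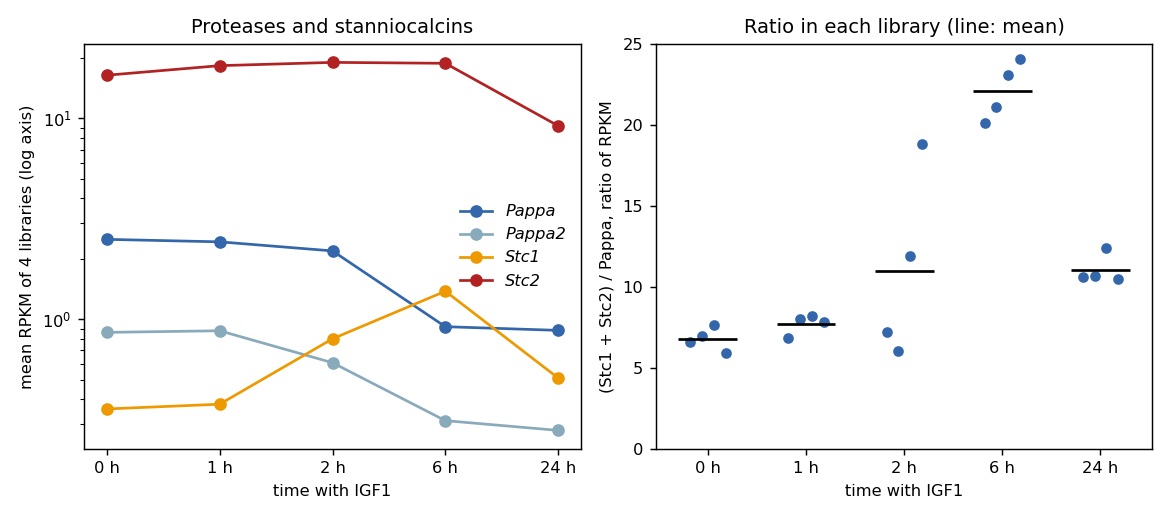
Left, mean RPKM of 4 libraries (log axis, SD not drawn) of Pappa, its relative Pappa2, Stc1 and Stc2 by hours with IGF1. Right, the ratio of summed Stc1 and Stc2 to Pappa in RPKM in each library, with a line at the mean. The ratio goes from 5.94 to 7.63 at 0 h up to 20.1 to 24.1 at 6 h.

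Between successive times, 4 genes rose from 1 h to 2 h (Igfbp3, Igfbp4, Igfbp5, Stc1), where 16.3% of all tested genes were called (7.50% higher, 8.84% lower). From 2 h to 6 h Stc1 was called higher and Pappa lower, against 27.4% (13.6% higher, 13.7% lower). From 6 h to 24 h Igfbp3, Igfbp4 and Igfbp5 rose and Stc1 and Stc2 fell, against 35.8% (17.6% higher, 18.2% lower). With 2 h replicates 1 and 2 left out, the step from 1 h to 2 h gave 4 higher and 1 lower: Igfbp3 (0.18, adjusted p = 0.256) and Stc1 (0.57, 0.202) were lost, Igfbp6 (0.27, 0.0270) and Igfbp7 (0.31, 0.0233) were called higher and Pappa (-0.80, 6.94e-04) lower. Without 2 h replicate 2 the count was 2, Igfbp4 and Igfbp5. The count for 2 h to 6 h was 4 without 2 h replicate 2, with Igfbp2 (-0.46, adjusted p = 0.00106) and Igfbp6 (-0.37, 0.0109) added. It was 6 when both 2 h replicates were left out: Igfbp5 and Stc1 higher, and Igfbp2, Igfbp6, Igfbp7 and Pappa lower.

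The 4 libraries at 2 h differed more than those of any other time in 7 of the 9 genes, all but Igfbp4 and Stc2. The coefficient of variation at 2 h was 60.6% for Igfbp5, 54.5% for Stc1, 46.9% for Pappa, 27.1% for Igfbp6 and 26.9% for Igfbp2. At the other times it was at most 23.7%, 40.1%, 15.3%, 9.59% and 8.68% for these genes. Igfbp4 (3.33%) and Stc2 (5.39%) varied little at 2 h. Replicate 2 was the highest of the 4 in Igfbp3, Igfbp5, Pappa and Stc1 and the lowest in Igfbp2 and Igfbp6, and replicate 4 the lowest in Igfbp5 and Pappa and the highest in Igfbp2, Igfbp6 and Igfbp7. Replicate 2 also had the highest summed level of macrophage, endothelial, pericyte and Schwann cell markers at 2 h, and their part in these differences was not tested.

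**Figure D5:**
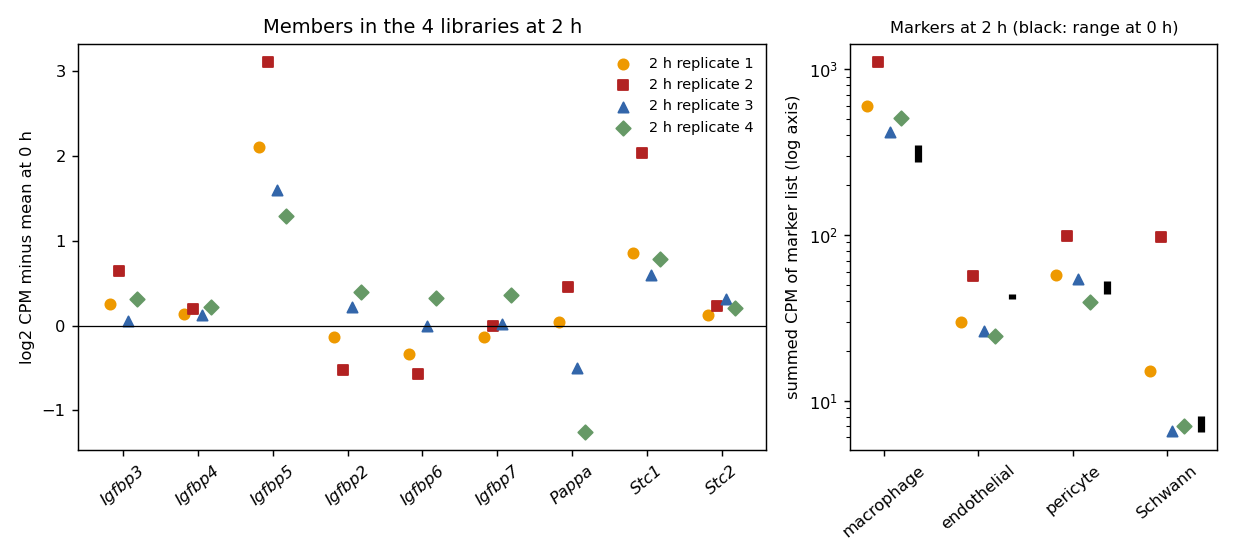
Left, log2 CPM of the 9 genes in each of the 4 libraries at 2 h minus the mean of the 4 at 0 h. Right, summed CPM (log axis) of 4 marker lists in the same libraries, with black bars for the range at 0 h. For Pappa the libraries run from 11.4 CPM in replicate 4 to 37.6 CPM in replicate 2, and replicate 2 has 1099 CPM of macrophage markers.

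Of the other genes of the system, 4 lists were examined. Of all tested genes 12.7% were called higher and 13.2% lower at 24 h. Of 7 ligand and receptor genes 6 were tested, and 0 rose and 3 fell at 24 h, with a median log2 fold change of 0.00, as for all tested genes. Igf1r, the IGF1 receptor, fell by 0.82 ± 0.084 on the log2 scale at 6 h (adjusted p = 1.04e-08) and by 1.28 ± 0.085 at 24 h (5.31e-12). Insr, the insulin receptor, fell by 0.81 ± 0.092 at 2 h (7.46e-08) and by 0.34 ± 0.091 at 24 h (0.00589), and Igf1 itself fell by 0.52 ± 0.059 at 24 h (9.57e-08). Of 14 genes for binding partners of these proteins, 13 were tested, and 0 rose and 3 fell at 24 h, among them Thbs1 (-1.72 ± 0.10, adjusted p = 4.16e-12) and Itgb1 (-0.42 ± 0.051, 3.32e-07). Their median at 24 h was -0.16. At 2 h, with all libraries, 5 of these 13 genes rose and 2 fell, where 20.2% of all tested genes were called higher and 17.5% lower. Thbs1 encodes the matrix protein thrombospondin and Itgb1 an integrin subunit.

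Of 22 other genes for proteases and their inhibitors, 20 were tested. At 6 h 3 rose and 7 fell, and at 24 h 4 rose and 6 fell, with medians of -0.07 and -0.10. Of all tested genes 20.6% were called higher and 19.6% lower at 6 h, and 12.7% and 13.2% at 24 h. Pappa2, a relative of Pappa that cuts Igfbp3 and Igfbp5, also fell at 6 h and 24 h. It measured 7.29 to 9.55 CPM at 0 h and 2.23 to 3.72 CPM at 24 h, with log2 fold changes of -1.46 ± 0.19 at 6 h (adjusted p = 4.78e-07) and -1.61 ± 0.19 at 24 h (2.45e-07). Adam12, a metalloprotease that cuts Igfbp3 and Igfbp5, rose by 1.29 ± 0.15 at 6 h (1.82e-06) and 0.98 ± 0.15 at 24 h (8.35e-05). The complement protease gene C1s1 fell by 1.04 ± 0.080 at 24 h (8.38e-11). Plau, the urokinase gene, was 0.68 ± 0.092 higher at 1 h (6.25e-06) and 0.95 ± 0.092 at 2 h (6.80e-09).

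The last list held other proteins with an IGFBP domain, the fold that binds IGF in this family. Of 13 such genes 9 were tested, and at 24 h 1 rose and 5 fell, with a median log2 fold change of -0.70. The shares of all tested genes at 24 h were 12.7% higher and 13.2% lower. The connective tissue growth factor gene Ctgf fell at 2 h, 6 h and 24 h (-1.43 ± 0.20, -1.59 ± 0.20 and -2.25 ± 0.20, adjusted p = 2.38e-05, 6.22e-06 and 2.70e-07). Its relatives Wisp2 (-1.05 ± 0.064, 1.08e-12) and Cyr61 (-0.94 ± 0.15, 1.24e-04) and the growth factor binding gene Crim1 (-0.84 ± 0.087, 2.22e-08) fell at 24 h.

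Across the 20 libraries the genes most like each of the 9 were found by the Pearson correlation of log2 CPM, among 10045 tested genes with a mean of at least 5 CPM. The libraries share times and 2 h replicate 2, so these values are a description. Tgfbi was the closest to Igfbp3 (r = 0.985) and among the 3 closest to Igfbp5 (0.932) and Igfbp4 (0.908). Elovl6 (0.958) and Scd1 (0.957) were the closest to Igfbp5. Pappa was close to Sulf1 (0.951) and Osmr (0.948) and Igfbp4 to Fam102a (0.914). Soat1 (0.912), Ampd3 (0.910) and Pfkp (0.909) were the closest to Stc1, and Wdr1 (0.957), Fermt2 (0.949) and Map2k1 (0.946) to Stc2.

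Of the other binding proteins, Igfbp6 was most like Rabac1 (0.943), Igfbp2 most like Rpl10a (0.874) and Igfbp7 most like Sod3 (0.875). Within the 9, the highest correlations were between Igfbp3 and Igfbp5 (0.935), Igfbp3 and Igfbp4 (0.907), Igfbp4 and Igfbp5 (0.884), and Igfbp2 and Igfbp6 (0.884). Stc1 and Stc2 had a correlation of 0.257.

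Igfbp2 and Igfbp5 are neighbours on chromosome 1, 5457 bases apart with their 3′ ends facing each other. Igfbp5 rose 14.4-fold at 24 h, while Igfbp2 was 1.26-fold lower and missed the threshold. Igfbp4 lies 17.05 kb from Top2a, a topoisomerase of dividing cells, which rose by 2.00 ± 0.13 on the log2 scale at 24 h (adjusted p = 1.58e-10), against 0.39 for Igfbp4. Igfbp6 lies 1.01 kb from Soat2, whose value at 24 h was -0.06 ± 0.20 (0.859).

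The authors' deposited table of edgeR results covers 12207 genes, with all 9 among them. Over 63 log2 fold changes (9 genes in 7 comparisons) its values differ from those given here by at most 0.0140. Of these 63 values, 29 have an adjusted p under 0.05 in the authors' deposited table, and the same 29 were called here.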

How the data were processed

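The 20 tenocyte RNA libraries were grouped by their labels, 4 to a time. The authors deposited raw read counts per gene, 29986 genes in all. Per the submitters' processing notes, FastQC, STAR and edgeR were used with build mm10; versions, counting tool, annotation release and strand use are unknown (not given in the sources used here). A table of edgeR results that the authors deposited holds log2 fold changes, average log2 CPM, p-values and adjusted p-values, per the file headers, and serves only for the closing comparison of the report.

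Counts were analysed with edgeR 4.0.16 in R 4.3.3. Its default filter over the 5 groups kept 14420 genes with 99.9% of all counts. Libraries were scaled by TMM and fitted together in 1 robust quasi-likelihood model of the 5 times, with no covariate and a shared estimate of the spread. Tests are two-sided, with Benjamini-Hochberg adjustment over all genes tested. SEs are the absolute log2 change over the root of F. The fit was also run on simulated counts, for 24 h against 0 h only. Those counts were drawn independently for each library, so they do not stand for the uneven libraries at 2 h. CPM use TMM-scaled totals, and RPKM divide them by the exonic length of GENCODE M21 (mm10), which also gave positions and matched 29945 genes. Log2 CPM use a prior count of 2. Promoters are RefSeq's (GRCm38.p6), searched over 250 bases; those printed leave out bases inside the annotated gene.

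The 9 genes, the other lists and the rules were chosen with earlier results of these data known. Genes named are the 9, the 3 most correlated tested genes of each (mean CPM of at least 5, no unnamed gene models), up to 4 called genes of each list per time by size of change, and genomic neighbours; some are left out. The listed genes Igfbp1 and Adam28 were not analysed here.

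In the labels, 0 h replicates 1 and 2 share a description. A chi-square test of their counts gave 9.10 per degree of freedom (2.91 to 55.4 over all pairs within a time), more than sampling noise, and each counted as 1 replicate. Alternatives were RLE scaling, no count filter, DESeq2 1.42.0, a block for the replicate number, only the libraries compared, leaving out each library, and leaving out 2 h replicates 1 and 2.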

Additional observations from a re-analysis of the deposited data

Results flagged for a closer look

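In 4 of the 45 groups (9 genes at 5 times) 1 of the 4 libraries stood apart from the rest by Dixon's test, where chance gives about 1 in 20. Igfbp5 at 6 h was 329 CPM in replicate 2, with the next library at 276 CPM. Igfbp6 at 6 h was 299 CPM in replicate 4, with the next at 359.8 CPM. Pappa at 0 h was 33.8 CPM in replicate 4, with the next at 26.0 CPM. Stc1 at 2 h was 6.09 CPM in replicate 2, the library with the highest summed levels of macrophage and Schwann cell markers, with the next at 2.63 CPM. Without 2 h replicate 2, the log2 fold change of Stc1 at 2 h was 0.71, against 1.17 with all libraries.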

How the results depend on the processing

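Of 1260 values of single genes with 1 library left out, 1211 kept their side of the threshold, 36 lost and 13 gained a call. Of 378 values under the other alternatives 334 did so, 17 lost and 26 gained a call, and 1 reversed. That was Igfbp6 from 1 h to 2 h, -0.01 with all libraries and 0.27 (adjusted p = 0.0270) without 2 h replicates 1 and 2. A reversal was counted only where the value was called with all libraries or under the alternative. Some values that were not called changed sign, such as Igfbp2 at 2 h, which ran from -0.12 to 0.17 with 1 library left out. With 1 library left out, the number of the 9 genes called was 0 to 0 at 1 h, 3 to 6 at 2 h, 5 to 8 at 6 h, 6 to 8 at 24 h, 2 to 4 from 1 h to 2 h, 1 to 4 from 2 h to 6 h, 5 to 6 from 6 h to 24 h, and 8 to 9 at any time. With no count filter it was 1 at 1 h and 4 from 2 h to 6 h. With only the libraries compared it was 3 at 2 h, 1 from 2 h to 6 h and 0 from 1 h to 2 h, where 4 genes had an unadjusted p under 0.05 and DESeq2 on all libraries called 4. Without 2 h replicates 1 and 2 it was 1 at 1 h and 6 from 2 h to 6 h. The cause of these changes was not tested.

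No pairing of the libraries by replicate number was seen: 1 of 40 pairs of equal number had a correlation of deviations over 0.1 (range -0.170 to 0.126). Among the 4 libraries of another time, a library correlated best with its own number in 21 of 80 comparisons. For 0 of 20 libraries this held throughout. The labels do not say whether the numbers pair libraries, and low correlations cannot show that pairing was absent. With the replicate block, 0, 5, 6 and 7 of the 9 genes were called at 1, 2, 6 and 24 h, and 3, 2 and 5 in the successive steps. The block ended the calls of Igfbp6 at 6 h (adjusted p = 0.0536) and 24 h (0.0658) and of Igfbp3 from 1 h to 2 h (0.0687), and added Igfbp2 at 6 h (0.0446) and 24 h (0.0327). Counting error limits Stc1 most, with 17 counts in 1 library.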
